A study of Mus musculus with 42 samples.

Results

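Transcripts of 10 genes of brown and white fat cells, Ucp1, Cidea, Adipoq, Fabp4, Cfd, Car3, Plin1, Retn, Lep and Adrb3, were followed library by library through 30 kidney libraries. The genes were taken by symbol from a table of 43629 Ensembl genes, and all 10 matched a row. They had been chosen by their counts in 1 kidney library, replicate 4 of the mice given AZD8055, which held large amounts of them, so their levels in that library are given as a description with no test. The question was whether that library and the traces elsewhere look like brown or white fat.

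The mice were UM-HET3 males, a genetically mixed stock, that ate Purina 5LG6 diet with or without a compound for 1 month. They were 3 months old at its start and 4 months old when killed. Kidney libraries came from mice given AS-703026 at 30 ppm, an inhibitor of the kinase MEK, ascorbyl-palmitate at 6.3 ppm, a lipid-soluble ester of vitamin C, AZD8055 at 20 ppm, an mTOR inhibitor, enzastaurin at 75 ppm, a protein kinase C inhibitor, GDC-0941 at 50 ppm, a PI3 kinase inhibitor, or KU0063794 at 10 ppm, another mTOR inhibitor. Each compound had 4 libraries, and 6 libraries came from littermates on the plain diet, the control. Liver libraries of AS-703026, enzastaurin and GDC-0941, 4 each, served as values beside the kidney. RNA was read by CEL-seq, which counts the 3' ends of polyadenylated transcripts, from pieces of whole frozen organ. Total counts ran from 863605 to 5691067 in kidney (median 2248550), with 2177744 in AZD8055 replicate 4, and from 1084591 to 4361115 in liver.

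White fat cells store triglyceride in 1 large droplet and secrete hormones such as leptin, while brown fat cells hold many small droplets and burn fatty acids in mitochondria uncoupled by UCP1. Both kinds share a core programme of adiponectin, fatty acid binding, droplet coating and catecholamine receptors, so the core genes mark fat without telling its kind. In the mouse, fat lies against the kidney at the hilum and around the adrenal, and this perirenal fat is known to contain brown as well as white cells.

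Promoters of 3 of the genes are shown because they stand for the thermogenic gene (Ucp1), the shared adipocyte hormone (Adipoq) and the white fat hormone (Lep) that the comparison of fat types turns on. The RefSeq table for GRCm38.p6 held 6 of the 10 genes, and each entry spans 250 bases before to 50 bases after the gene start. Capitals mark a match to a searched motif. The sequences lie at chr8:83290098-83290397, chr16:23146286-23146585 and chr6:29059971-29060270, all on the plus strand.
Ucp1: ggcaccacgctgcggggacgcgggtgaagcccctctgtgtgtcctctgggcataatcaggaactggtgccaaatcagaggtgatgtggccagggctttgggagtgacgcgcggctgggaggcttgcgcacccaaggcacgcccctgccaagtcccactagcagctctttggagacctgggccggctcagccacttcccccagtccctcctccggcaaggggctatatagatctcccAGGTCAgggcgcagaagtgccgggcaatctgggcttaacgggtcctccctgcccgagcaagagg
Adipoq: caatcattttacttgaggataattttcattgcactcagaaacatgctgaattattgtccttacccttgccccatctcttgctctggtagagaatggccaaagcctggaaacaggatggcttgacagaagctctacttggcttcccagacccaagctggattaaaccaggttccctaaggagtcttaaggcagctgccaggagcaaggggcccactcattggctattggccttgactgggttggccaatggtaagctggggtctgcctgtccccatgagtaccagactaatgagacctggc
Lep: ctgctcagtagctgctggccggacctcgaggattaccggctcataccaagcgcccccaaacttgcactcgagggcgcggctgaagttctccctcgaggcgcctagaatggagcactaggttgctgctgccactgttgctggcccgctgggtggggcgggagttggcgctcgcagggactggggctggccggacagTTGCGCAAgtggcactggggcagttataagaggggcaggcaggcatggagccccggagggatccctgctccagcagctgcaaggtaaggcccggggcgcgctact
Both strands were searched for 4 motifs, and no match in the 6 windows overlaps another motif's. The core promoter motif TATAAA stood in 13.6% of all 32851 promoters of that length. The half-site bound by nuclear receptors, AGGTCA, stood in 16.3% of them. The site of C/EBP factors, TTGCNNAA, stood in 10.8%. The cAMP response element, TGACGTCA, stood in 1.79%. Ucp1 held AGGTCA at -14 from the gene start. Lep held TTGCGCAA at -55, where the letters read the same on either strand. Plin1 held TTGCNNAA at -187 and at -58, and none of the 4 motifs stood in the Adipoq, Cfd and Retn windows. These are matches of letters and not measured sites.

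In AZD8055 replicate 4 the 10 genes took 5.19% of all counts (Wilson 95% interval 5.16% to 5.22%), against 0.0115% to 0.0488% (median 0.0160%) in the other 29 kidney libraries. Without Car3, which kidney and liver also contain, the shares were 3.03% in AZD8055 replicate 4 and at most 0.0376% in the other 29. Intervals of this kind, and the floor of 3 counts used for an absent transcript, cover counting error only. Levels below are TMM-normalised CPM, counts scaled to a common total that is adjusted for its composition. All 10 genes were at their highest of the 30 libraries in AZD8055 replicate 4, as were 2253 of the 11719 genes that passed the filter on low counts (19.2%), and since the genes were chosen for this library nothing is read from the count. Of the 10 genes, 7 passed that filter and Plin1, Retn and Lep did not.

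The thermogenic genes stood far above the other libraries. Ucp1 (chromosome 8, 83290352 to 83298452, plus strand, GRCm38) encodes the uncoupling protein that makes heat in brown fat. It had 8052 counts, or 4140 CPM, in AZD8055 replicate 4, against 0.270 to 28.1 CPM (median 3.66) in the other 29. The highest of these was ascorbyl-palmitate replicate 1, which AZD8055 replicate 4 exceeded 148-fold (95% counting interval 116 to 191). The next was AZD8055 replicate 2 at 9.06 CPM. Cidea, a lipid droplet protein abundant in brown fat, reached 2674 counts and 1375 CPM in AZD8055 replicate 4, against 1.23 to 9.21 CPM (median 2.62) in the other 29. Ascorbyl-palmitate replicate 1 was again the highest of the others, 149-fold below (98.4 to 239). Both genes had at least 1 count in every kidney library, and in neither did AZD8055 replicate 4 overlap the rest. Cidea overlaps the antisense gene B430212C06Rik, and the strand setting of the counting is not given in the sources used here, so its counts are uncertain. That gene had 96 counts in AZD8055 replicate 4.

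Adrb3 (chromosome 8, 27225776 to 27250616, minus strand) encodes the beta-3 adrenergic receptor, through which noradrenaline drives fat breakdown in white and brown cells. It had 841 counts and 432 CPM in AZD8055 replicate 4, against 0 to 6.59 CPM (median 0.409) in the other 29, of which 10 libraries had no count. Its highest trace, AS-703026 replicate 2, rested on 6 counts, and the ratio to it was 65.6 (30.0 to 179).

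The secreted proteins of fat cells were high in the same library. Adipoq (chromosome 16, 23146536 to 23158028, plus strand) encodes adiponectin, a hormone of fat cells. AZD8055 replicate 4 held 5528 counts and 2843 CPM of it, against 1.10 to 13.8 CPM (median 2.73) in the other 29, and exceeded ascorbyl-palmitate replicate 1, the highest of these, 206-fold (146 to 299). Cfd (chromosome 10, 79890853 to 79892655, plus strand) encodes adipsin, a complement protease secreted by fat. It stood at 13894 counts and 7144 CPM in AZD8055 replicate 4, against 7.46 to 96.7 CPM (median 16.8) in the other 29, with AS-703026 replicate 1 at the top, 73.9-fold below (62.8 to 87.6).

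The hormones used to mark white fat were high as well. Retn (chromosome 8, 3655770 to 3660110, plus strand) encodes resistin, which in mice comes mainly from white fat cells. It had 790 counts and 406 CPM in AZD8055 replicate 4, against 0 to 6.59 CPM (median 0.845) in the other 29, of which 8 had none. The ratio to the highest of them, AS-703026 replicate 2 with 6 counts, was 61.6 (28.2 to 168). Lep (chromosome 6, 29060220 to 29073877, plus strand) encodes leptin, the satiety hormone of white fat. It had 71 counts and 36.5 CPM in AZD8055 replicate 4, while 23 of the other 29 libraries had none and the rest 1 or 2 counts. The highest of these was GDC-0941 replicate 1 with 2 counts, and the ratio to it was 20.1 (5.36 to 169).

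The lipid handling genes made up most of the counts. Fabp4 (chromosome 3, 10204088 to 10208576, minus strand) encodes the fatty acid carrier of fat cells, which capillary endothelium also makes. It reached 33710 counts and 17334 CPM in AZD8055 replicate 4, against 44.6 to 257 CPM (median 79.3) in the other 29. The highest of these was ascorbyl-palmitate replicate 1, 67.5-fold below (62.3 to 73.3). Car3 (chromosome 3, 14863512 to 14872523, plus strand) encodes carbonic anhydrase 3, abundant in fat and in mouse liver. It stood at 46922 counts and 24127 CPM in AZD8055 replicate 4, against 26.1 to 390 CPM (median 50.9) in the other 29, and enzastaurin replicate 1, the highest of these, was 61.8-fold below (56.4 to 67.9). Plin1 (chromosome 7, 79720218 to 79732903, minus strand) encodes perilipin, the coat of the fat droplet. It had 532 counts and 274 CPM in AZD8055 replicate 4, while 9 of the other 29 had none and none had more than 3 counts. The ratio to ascorbyl-palmitate replicate 1, with 3 counts, was 218 (74.1 to 1059).

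**Figure D1:**
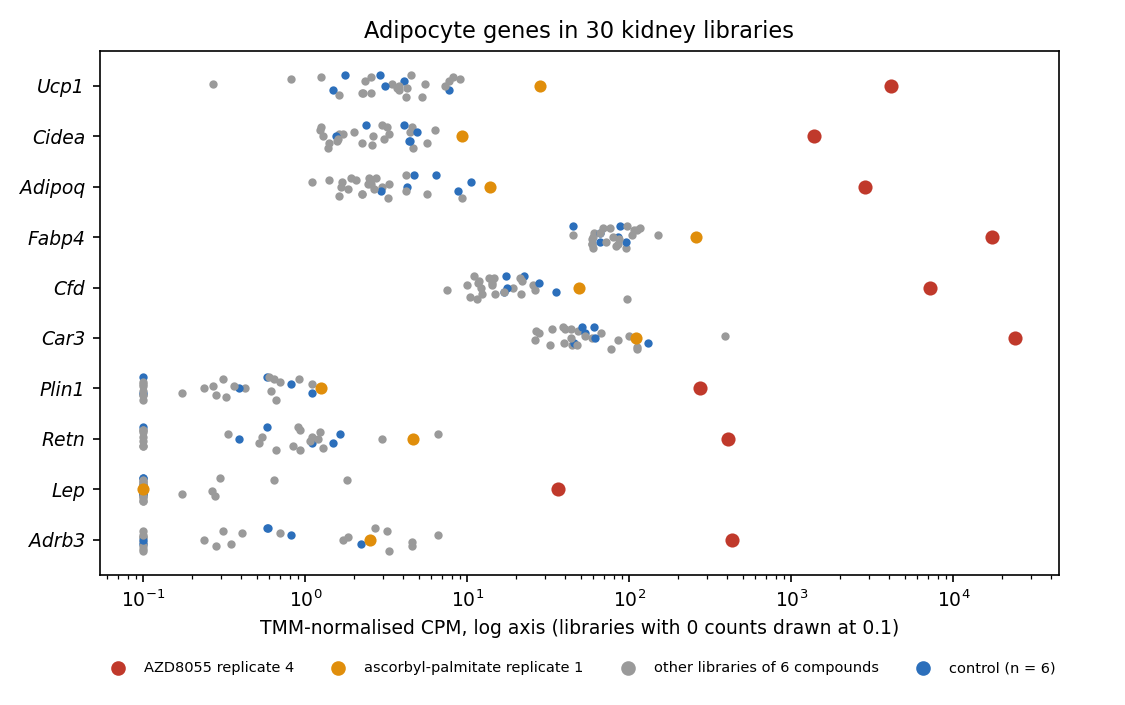
Level of each of the 10 genes in the 30 kidney libraries in TMM-normalised CPM on a log axis, 1 point per library, with libraries at 0 counts drawn at 0.1. AZD8055 replicate 4 lies right of the other 29 libraries for each gene, and ascorbyl-palmitate replicate 1 is next for Ucp1 (28.1 CPM), Cidea (9.21 CPM), Adipoq (13.8 CPM), Fabp4 (257 CPM) and Plin1 (1.26 CPM).

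Many of the other genes that stood apart in AZD8055 replicate 4 are known from fat cells. Ranked by the ratio to the highest of the other 29 libraries, among 3350 genes with at least 50 CPM in AZD8055 replicate 4, Plin1 was 1st, Adipoq 2nd, Cidea 5th and Ucp1 6th. Between them came Cidec, a droplet fusion protein, at 1435 CPM (171-fold), and Thrsp, a lipogenic nuclear protein, at 8616 CPM (157-fold). Next were the droplet protein Plin4 (132-fold), the amine oxidase Aoc3 (122-fold), the melanocortin receptor partner Mrap (115-fold), the proton channel Otop1 (101-fold) and the fatty acid synthase Fasn (94.5-fold). Cfd ranked 19, Fabp4 21, Adrb3 22, Car3 24 and Retn 25, and Lep lay below 50 CPM. More than 10 times the highest other library was seen for 116 of the 3350 genes. The choice of the 10 genes used this library, so the ranks only describe it.

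All 23 genes of the list for fat cells of any kind were at their highest of the 30 libraries in AZD8055 replicate 4, with a summed level of 75979 CPM, against 1587 to 3362 CPM in the other 29. All 14 genes of lipogenesis were as well (44444 CPM, against 1040 to 1656 CPM), and so were all 11 genes of the lipid droplet and of lipolysis (12178 CPM, against 206 to 411 CPM). Among them Scd1, the desaturase that makes oleate, stood at 17778 CPM in AZD8055 replicate 4, against at most 337 CPM in the other 29. Lipe, the hormone-sensitive lipase, stood at 591 CPM, against at most 10.6 CPM, and Pparg, the master transcription factor of fat cells, at 168 CPM, against at most 10.0 CPM. The share of all tested genes highest in that library, 19.2%, is the background of these counts, which describe 1 library. The list for any fat cell includes Adipoq, Fabp4, Cfd, Car3, Plin1 and Adrb3, which were chosen for this library. They stood there at 2843, 17334, 7144, 24127, 274 and 432 CPM. The droplet list likewise includes Plin1 and Cidea.

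Markers of brown and of white fat were both high in AZD8055 replicate 4. Of 16 brown fat genes, 11 were at their highest of the 30 libraries in AZD8055 replicate 4, beside 19.2% of all tested genes, with a summed level of 6922 CPM, against 84.0 to 226 CPM in the other 29. This count and sum include Ucp1 (4140 CPM) and Cidea (1375 CPM), which were chosen for this library. Besides them, the 11 included Cox8b, a cytochrome oxidase subunit of brown fat and muscle, at 509 CPM in AZD8055 replicate 4, against 0 to 12.1 CPM in the other 29. Cox7a1, another such subunit, stood at 164 CPM, against 5.96 to 25.5 CPM. Otop1 stood at 259 CPM, against 0 to 2.55 CPM, and Ucp3, an uncoupling protein of muscle and brown fat, at 107 CPM, against 0 to 4.60 CPM. The thioesterase Acot11, induced by cold in mouse brown fat, stood at 203 CPM, against 5.50 to 18.5 CPM.

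Less abundant brown fat genes followed the same way. Ebf2, a factor that fixes brown fat identity, was at 39.6 CPM in AZD8055 replicate 4, against 0 to 7.72 CPM in the other 29, and Prdm16, a coregulator of that programme that kidney also transcribes, at 42.2 CPM, against 5.35 to 28.6 CPM. Dio2, the deiodinase that activates thyroid hormone, had 21.1 CPM, against 0 to 5.45 CPM, and Elovl3, a fatty acid elongase of cold-exposed brown fat, 26.7 CPM, against 0 to 4.26 CPM. The other 5 did not stand out. Zic1, a marker of brown fat between the shoulder blades, Cpt1b and Bmp8b had 0 counts in AZD8055 replicate 4, which allows up to 1.38 CPM on the raw total. Lhx8, another marker of brown fat between the shoulder blades, had 2 counts. Kng2 was at 33.9 CPM, below the 42.8 to 125 CPM of the other 29. Cpt1b, the muscle and brown fat form of carnitine palmitoyltransferase, had 0 counts in every kidney library, so it cannot serve as a marker in this table.

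Of 12 white fat genes, 6 were at their highest of the 30 libraries in AZD8055 replicate 4, beside 19.2% of all tested genes, and the list summed to 1050 CPM, against 57.5 to 137 CPM in the other 29. This count and sum include Retn (406 CPM) and Lep (36.5 CPM), which were also chosen for this library. Besides Retn and Lep, Sncg, a synuclein abundant in white fat, stood at 281 CPM in AZD8055 replicate 4, against 0 to 38.3 CPM in the other 29. Hoxc8, a position gene expressed in white more than in brown fat, stood at 230 CPM, against 0 to 14.3 CPM. The imprinted gene Nnat stood at 38.6 CPM, against 0 to 1.63 CPM, and Hoxc9 at 22.6 CPM, against 4.39 to 21.5 CPM, with almost no gap. The other 6 lay within or below the range of the other 29. Slc7a10, an amino acid carrier of white fat, had 0 counts, and Wt1, a marker of visceral fat stroma, mesothelium and kidney podocytes, stood at 1.54 CPM, against 2.87 to 15.4 CPM.

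Of 8 beige fat genes, 3 were at their highest in AZD8055 replicate 4, beside 19.2% of all tested genes, which is no clear difference. They were P2rx5 (34.5 CPM, against at most 6.27 CPM), Klhl13 (22.1 CPM, against at most 15.7 CPM) and Slc27a1 (7.20 CPM, against at most 3.83 CPM). The list summed to 68.4 CPM in AZD8055 replicate 4, against 22.6 to 53.0 CPM in the other 29. Tmem26, used to mark beige cells, stood at 3.60 CPM, below the 7.54 to 45.3 CPM of the other 29, and Tnfrsf9, Tbx1 and Shox2 had 0 counts. A pair of the beige markers, Klhl13 and P2rx5, was also highest in the fat-containing liver library described further on. Klhl13 stood at 10.5 CPM there, against at most 9.06 CPM (median 6.67) in the other liver libraries. P2rx5 rested on 3 counts, the floor used for an absent transcript, at 0.688 CPM against at most 0.515 CPM.

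**Figure D2:**
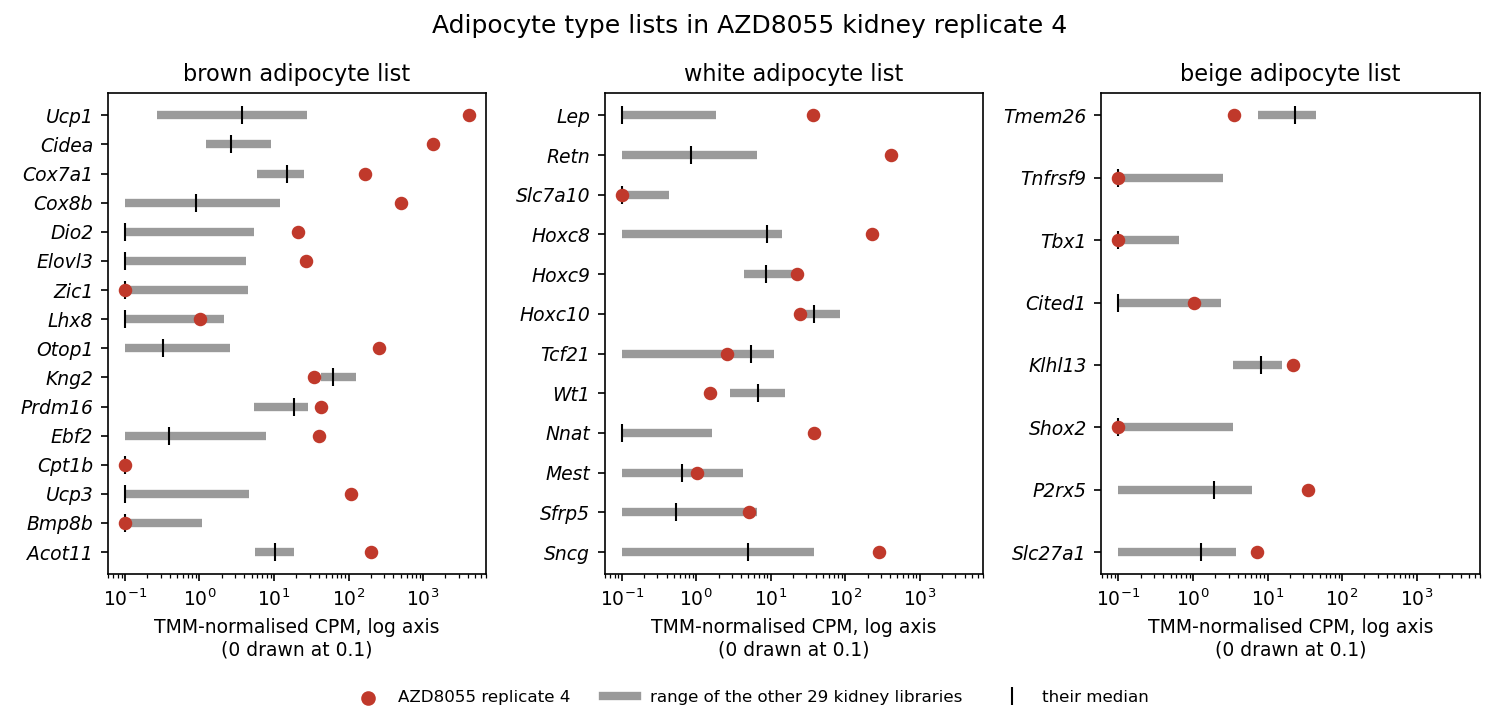
Levels of the brown, white and beige fat marker lists in TMM-normalised CPM on a log axis, with AZD8055 replicate 4 as a red point, the range of the other 29 kidney libraries as a grey bar and their median as a tick, and 0 drawn at 0.1. The red point lies right of the bar for 11 of 16 brown, 6 of 12 white and 3 of 8 beige genes, and left of it for Kng2, Wt1 and Tmem26. Ucp1, Cidea, Retn and Lep are among the genes chosen for this library.

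Mitochondrial fuel genes, which tubule cells use as well, were high in part. Of 15 such genes, 10 were at their highest in AZD8055 replicate 4, beside 19.2% of all tested genes, and the list summed to 13782 CPM, against 3511 to 5035 CPM in the other 29. Hadhb, of the trifunctional protein of fatty acid oxidation, stood at 6147 CPM in AZD8055 replicate 4, against 289 to 603 CPM in the other 29, and Cs, citrate synthase, at 1730 CPM, against 186 to 354 CPM. Ppargc1a, the coactivator of mitochondrial biogenesis, stood at 93.1 CPM in AZD8055 replicate 4, within the 90.0 to 185 CPM of the other 29. Gk, glycerol kinase, stood at 332 CPM, below the 583 to 1145 CPM of the other 29.

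The label of the organ held in AZD8055 replicate 4, but kidney markers were low there. The 8 kidney markers summed to 3332 CPM in AZD8055 replicate 4, against 6793 to 10957 CPM in the other 29. Slc34a1, which takes up phosphate in the proximal tubule, stood at 2097 CPM, against 2562 to 8032 CPM. In bulk RNA, fewer cells of a type and less RNA per cell cannot be told apart. Markers of other tissues near the kidney were mostly at 0 in that library. The 7 exocrine pancreas markers were all at 0 counts, 6 of 8 adrenal cortex markers and 4 of 5 adrenal medulla markers were at 0, and 5 of 8 muscle markers were at 0, among them Ckm. The muscle marker Mylpf had 1 count, and Acta1 12 counts, or 6.17 CPM, the highest of the 30 libraries (at most 1.10 CPM in the other 29). The muscle list summed to 7.20 CPM in AZD8055 replicate 4, against 0 to 9.89 CPM (median 2.71) in the other 29. The adrenal cortex list summed to 8.74 CPM, against 1.10 to 10.6 CPM (median 3.94). Nearly all of it was Mc2r, the receptor for corticotropin of the adrenal cortex and of mouse fat cells, at 16 counts and 8.23 CPM, the highest of the 30 libraries (at most 2.19 CPM in the other 29). Liver markers were present. The 11 summed to 1702 CPM, against 260 to 2474 CPM (median 545) in the other 29. Alb, serum albumin, stood at 236 CPM, against 630 CPM in enzastaurin replicate 1 and 0 to 11.8 CPM in the other 28. The list's median log2 difference to the median of the other 29 was 5.52, beside 5.48 for lipogenesis and 0.04 over all tested genes. Car3, which liver also makes, stood at 24127 CPM beside this Alb level, against 390 CPM in enzastaurin replicate 1. Hp, haptoglobin, at 534 CPM, and Trf, transferrin, at 279 CPM were the 2 of the 11 that were highest in AZD8055 replicate 4, and fat makes haptoglobin too. Of 5 macrophage markers 4 were highest in that library, beside 19.2% of all tested genes, with a sum of 169 CPM, against 22.8 to 96.6 CPM in the other 29. Red cell markers summed to 12409 CPM, against 961 to 15383 CPM, lymphoid markers to 45.2 CPM, against 5.49 to 50.1 CPM, and mesothelial markers to 6.68 CPM, against 0 to 61.3 CPM. The part of these cell types in the levels of the 10 genes was not tested.

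A fat-containing library of another organ gave a measure of what the same genes look like without brown fat transcripts. Enzastaurin liver replicate 2 held 199 Adipoq, 566 Fabp4, 1141 Cfd, 95 Retn, 25 Plin1 and 3 Lep counts, but 0 Ucp1 and 2 Cidea counts. The other 11 liver libraries together held 10 Adipoq, 268 Fabp4, 21 Cfd, 1 Retn, 3 Plin1, 1 Lep, 1 Ucp1 and 0 Cidea counts. Enzastaurin liver replicate 2 was the highest of the 12 liver libraries for 7 of the 10 genes, for 11 of 23 genes of any fat cell, for 5 of 12 white and for 1 of 16 brown fat genes, beside 400 of 9490 tested liver genes (4.21%). The brown gene was Cidea, at 2 counts. Otop1 and Ucp3 were at 0 counts there, and Cox8b at 2 counts. Sncg had 79 counts, or 18.1 CPM on the raw total, against at most 0.577 CPM in the other 11 liver libraries. Car3 and Adrb3 do not mark fat in liver. Car3 had 2808 to 35047 counts and Adrb3 8 to 59 counts in each of the 12 liver libraries, and in both enzastaurin replicate 2 lay within the range of the rest.

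Ratios within a library compare transcripts made by fat cells alone without regard to how much fat RNA the library holds. For genes that the organ also transcribes, such as Fabp4 in capillary endothelium, they depend on that amount as well. Per 100 Adipoq counts, AZD8055 kidney replicate 4 had 146 Ucp1 counts (141 to 151), against 0 (up to 1.87) in enzastaurin liver replicate 2. Cidea was at 48.4 (46.2 to 50.7) in AZD8055 kidney replicate 4, against 1.01 (0.121 to 3.68) in enzastaurin liver replicate 2. Plin1 was at 9.62 (8.79 to 10.5) in AZD8055 kidney replicate 4, against 12.6 (7.94 to 19.1) in enzastaurin liver replicate 2, with intervals that overlap. For Lep the ratio was 1.28 (1.00 to 1.62), against 1.51 (0.308 to 4.47), which also overlap. Retn was lower per Adipoq in the kidney library, 14.3 (13.2 to 15.4), against 47.7 (37.0 to 61.3) in the liver one, and so was Cfd, 251 (244 to 259), against 573 (493 to 670). Fabp4 was at 610 (593 to 628), against 284 (242 to 336). All are 95% intervals for counting error, and each side is 1 library, so they compare those libraries only.

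The traces in the other kidney libraries also contained Ucp1. Ascorbyl-palmitate replicate 1, with 33 Adipoq counts, had 203 Ucp1 (132 to 318), 66.7 Cidea (37.0 to 118), 9.09 Plin1 (1.78 to 28.98) and 18.2 Adrb3 counts (6.23 to 43.9) per 100 Adipoq counts. The remaining 28 libraries, summed to 215 Adipoq counts, had 107 Ucp1 (88.0 to 129), 76.3 Cidea (61.9 to 93.9), 9.30 Plin1 (5.57 to 14.7) and 31.2 Adrb3 counts (23.3 to 41.2). For Adrb3, AZD8055 replicate 4 had 15.2 (14.1 to 16.4) and the control libraries alone 9.09 (2.84 to 22.5). The white fat hormones were in these traces too. Retn stood at 14.3 (13.2 to 15.4) per 100 Adipoq counts in AZD8055 replicate 4. It stood at 33.3 (15.2 to 67.6) in ascorbyl-palmitate replicate 1 and at 26.5 (19.4 to 35.7) in the 28 summed. The sum was thus higher per Adipoq than AZD8055 replicate 4, but the control libraries alone were not, at 12.7 (4.89 to 28.02). Of the 57 Retn counts in the sum, AZD8055 replicate 1 held 7 and AS-703026 replicate 2 held 6. The spread between libraries is not in the interval of the sum. Lep stood at 1.28 (1.00 to 1.62) in AZD8055 replicate 4, against 0 (up to 11.8) in ascorbyl-palmitate replicate 1 and 3.26 (1.29 to 6.82) in the 28, with intervals that overlap. For Fabp4, AZD8055 replicate 4 had 610 (593 to 628), against 2532 (2209 to 2915) in these 28, and for Car3 849 (825 to 873), against 1857 (1618 to 2140). Capillary endothelium also makes Fabp4, and kidney also contains Car3. The part of kidney cells in these ratios was not tested. The control libraries alone, summed to 55 Adipoq counts, had 54.5 Ucp1 counts (33.7 to 86.6) per 100. AZD8055 replicates 1 to 3 summed to 12 Adipoq and 36 Ucp1 counts, with an interval of 153 to 633 Ucp1 counts per 100. By library, the ratio of Ucp1 to Adipoq counts ran from 0.111 in enzastaurin replicate 2 to 7.0 in AS-703026 replicate 2, with a median of 1.07 over the 29. It was above 1 in 15 libraries, below 1 in 12 and equal to 1 in 2, on as few as 1 count of either gene.

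**Figure D3:**
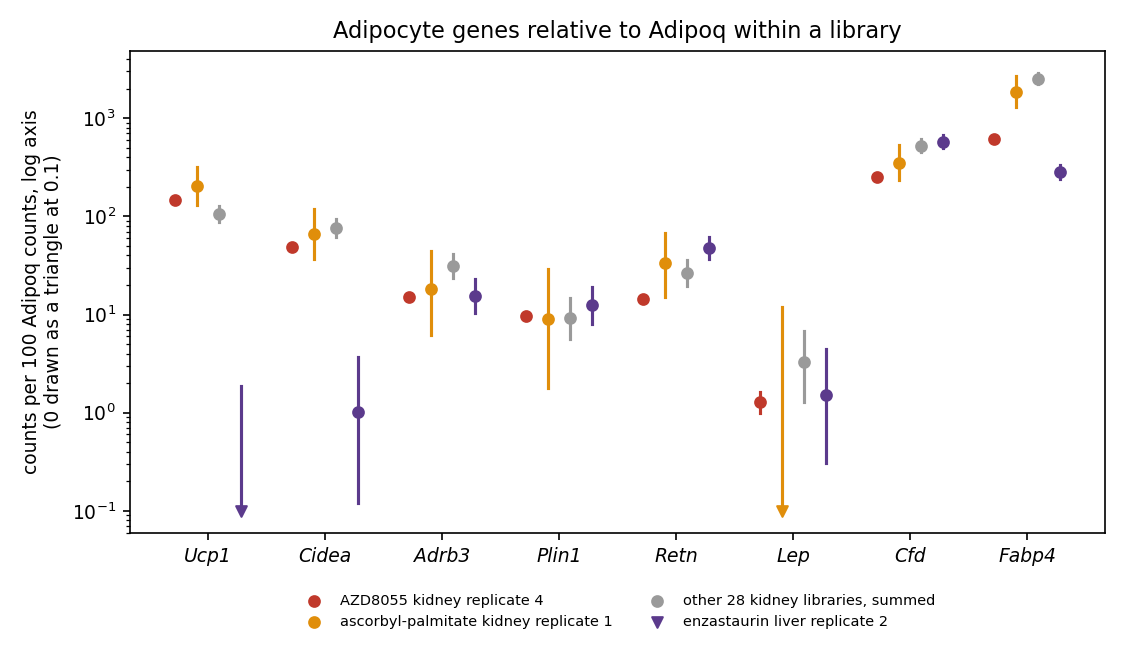
Counts of 8 genes per 100 Adipoq counts on a log axis, with 95% counting intervals, in AZD8055 kidney replicate 4, ascorbyl-palmitate kidney replicate 1, the other 28 kidney libraries summed and enzastaurin liver replicate 2, with 0 drawn as a triangle at 0.1. Ucp1 and Cidea are at or above 48.4 in the 3 kidney sets and at or below 1.01 in the liver library, while Plin1 lies between 9.09 and 12.6 in all 4.

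Ascorbyl-palmitate replicate 1 was the clearest of the trace libraries. With AZD8055 replicate 4 set aside, it was the highest of 29 for 5 of the 10 genes, 5 of 16 brown, 0 of 12 white and 8 of 23 genes of any fat cell, beside 455 of 11719 tested genes (3.88%). Of the white genes, Retn stood there at 4.61 CPM on 11 counts, second to AS-703026 replicate 2 at 6.59 CPM on 6 counts. Lep had 0 counts, which allows up to 1.29 CPM on the raw total. The brown genes highest in ascorbyl-palmitate replicate 1 were Ucp1, Cidea, Cox7a1 at 25.5 CPM, Cox8b at 12.1 CPM and Kng2, which kidney also transcribes. Cox8b in the other 28 ran from 0 to 7.89 CPM. The lipogenic genes Thrsp, at 54.9 CPM against at most 20.2 CPM in the other 28, and Fasn, at 48.2 CPM against at most 35.8 CPM, were also highest there. So were the tubule markers Umod, at 4602 CPM against at most 3886 CPM, and Slc12a1, at 561 CPM against at most 555 CPM. Elsewhere, AS-703026 replicate 1 had Cfd at 96.7 CPM with Adipoq at 9.21 CPM. Enzastaurin replicate 1 had Car3 at 390 CPM with Adipoq at 2.56 CPM, and was also the kidney library with the most Alb, at 630 CPM, and the highest liver marker sum, at 2474 CPM. The part of liver RNA in its Car3 level was not tested.

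Over the 29 libraries the 10 genes followed each other loosely. Spearman's rho of Ucp1 levels was 0.45 with Cidea, 0.66 with Plin1, 0.24 with Adipoq and 0.17 with Fabp4. Without ascorbyl-palmitate replicate 1 these were 0.39, 0.62, 0.15 and 0.08. The values share library depth and rest on few counts, so they are given as descriptions only. The genes most like the mean of the 7 filtered members, by Pearson's r of log2(CPM + 1) over the 29 libraries and among 9733 genes with a mean of at least 5 CPM, were Thrsp (0.67), Gm42418 (0.66), Zfp46 (0.61), Eri1 (0.59), Pcf11 (0.58), Tfap2b (0.58), Fasn (0.57) and Hivep2 (0.56). Without ascorbyl-palmitate replicate 1, Thrsp had 0.42 and Fasn 0.34, while Gm42418, a ribosomal RNA-like locus, had 0.64 and Eri1 0.70.

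The compounds were then compared with control, with AZD8055 replicate 4 left out because it had chosen the genes. By edgeR's quasi-likelihood test with Benjamini-Hochberg adjustment over 12227 genes, none of the 7 members tested passed 0.05 under any of the 6 compounds. The number of members with an unadjusted p under 0.05 was 1 for AS-703026 (Adrb3), 2 for ascorbyl-palmitate (Ucp1 and Fabp4), 1 for AZD8055 (Adipoq), 2 for enzastaurin (Adipoq and Car3), 1 for GDC-0941 (Adipoq) and 0 for KU0063794. Of all 12227 genes, 2210, 1839, 1569, 1192, 1881 and 1505 had such a p, in the same order of compounds. Beside so many genes, these numbers are no result about the members. DESeq2 called none of the members to which it gave an adjusted p, and gave none for Ucp1 under ascorbyl-palmitate or for Adipoq under AZD8055 and GDC-0941. Over all genes, 339 passed for AS-703026 (2.77%), 25 for AZD8055 replicates 1 to 3 (0.204%), 7 for ascorbyl-palmitate (0.0573%), 35 for GDC-0941 (0.286%), 5 for KU0063794 (0.0409%) and 0 for enzastaurin (0.0%, with 1192 at an unadjusted p under 0.05 and 52 called by DESeq2). The comparisons share the 6 control libraries. At such shares over all genes, 0 of 7 is no result about the members.

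Ucp1 was at 3.66, 7.26 and 9.06 CPM in AZD8055 replicates 1 to 3, against 1.47 to 7.69 CPM (median 3.00) in the 6 controls. The groups overlap, and the log2 change was 1.00 ± 0.74 (SE, adjusted p = 0.611). Under ascorbyl-palmitate Ucp1 stood at 0.819, 1.61, 4.26 and 28.1 CPM, against the same controls. Its log2 change of 1.38 ± 0.65 (adjusted p = 0.303) was -0.46 without replicate 1. Under AS-703026 the 4 libraries lay between 4.48 and 7.69 CPM (log2 change 0.75 ± 0.69), and under enzastaurin between 0.270 and 3.41 CPM (log2 change -1.05 ± 0.78). GDC-0941, with 2.53 to 8.18 CPM, and KU0063794, with 2.26 to 4.16 CPM, both overlapped the controls, at log2 changes of 0.27 ± 0.70 and 0.00 ± 0.71.

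Adipoq was lower on average than in control under each compound, and in no case past the threshold. It stood at 1.39, 1.83 and 2.99 CPM in AZD8055 replicates 1 to 3, against 2.95 to 10.6 CPM (median 5.54) in control (log2 change -1.49 ± 0.66, adjusted p = 0.319). The 4 GDC-0941 libraries lay between 1.67 and 2.73 CPM, all below the lowest control, at a log2 change of -1.53 ± 0.58 and an adjusted p of 0.190. The 4 enzastaurin libraries, between 2.22 and 2.56 CPM, also lay below the lowest control (log2 change -1.32 ± 0.55, adjusted p = 0.454). Both gaps rest on few counts. The lowest control, control 4, had 4 Adipoq counts, and the highest library of either compound, replicate 1 in each, had 3. How many of all genes separate in this way was not counted. KU0063794, AS-703026 and ascorbyl-palmitate had log2 changes of -0.79 ± 0.54, -0.42 ± 0.53 and -0.29 ± 0.51, with overlapping libraries. The last was -1.47 without ascorbyl-palmitate replicate 1.

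Fabp4 averaged 134 ± 82.5 CPM under ascorbyl-palmitate and 74.0 ± 18.8 CPM in control (SD, n = 4 and 6), a log2 change of 0.88 ± 0.28 with an adjusted p of 0.114, and 0.37 without replicate 1. With no filter on low counts this change passed (0.91, adjusted p = 1.9e-05), as did Car3 under enzastaurin (1.10, adjusted p = 1.02e-07) and under GDC-0941 (-0.75, adjusted p = 0.00838), and with DESeq2 Fabp4 had an adjusted p of 0.0516. The Fabp4 changes under the other 5 compounds lay between -0.18 ± 0.29 (KU0063794) and 0.47 ± 0.28 (AS-703026). Car3 averaged 144 ± 166 CPM under enzastaurin and 66.7 ± 31.3 CPM in control (SD, n = 4 and 6), a log2 change of 1.08 ± 0.48 with an adjusted p of 0.475. That value was -0.06 without enzastaurin replicate 1. Cfd had a log2 change of 0.58 ± 0.49 under AS-703026 (adjusted p = 0.561), and of -0.77 without AS-703026 replicate 1. Adrb3 stood at 1.83, 2.69, 3.29 and 6.59 CPM under AS-703026, against 0 to 2.20 CPM (median 0.584) in control. These libraries overlap, and the log2 change of 2.46 ± 1.24 rested on 5 to 9 counts a library (adjusted p = 0.258). Cidea changed by between -1.01 ± 0.60 (enzastaurin) and 0.10 ± 0.57 (AS-703026) on the log2 scale.

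Plin1, Retn and Lep did not pass the filter and are given as counts. Plin1 had 1 count in each of AZD8055 replicates 1 to 3, against 0 or 1 in each control. Retn had 7, 0 and 0 counts in AZD8055 replicates 1 to 3, against 0 to 2 in control. Lep had 0 counts in AZD8055 replicates 1 to 3 and in all 6 controls.

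**Figure D4:**
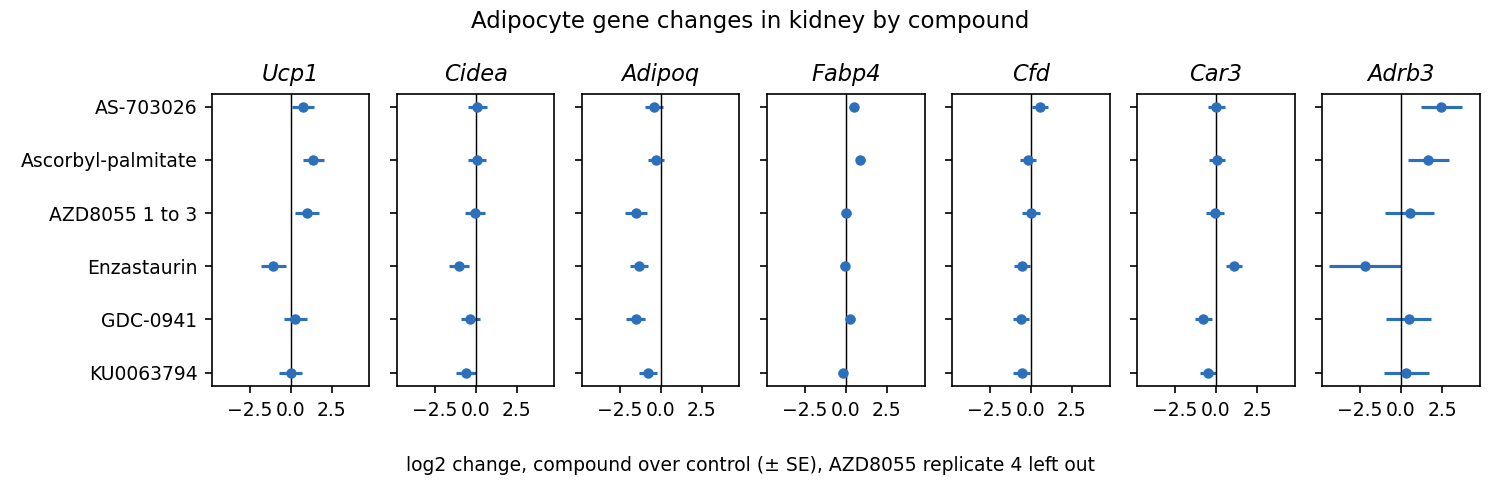
Log2 change of the 7 tested genes for each compound over control (points, with standard errors as bars) from edgeR over 29 kidney libraries, AZD8055 replicate 4 left out. Points lie between -2.19 (Adrb3 under enzastaurin) and 2.46 (Adrb3 under AS-703026), and none passed an adjusted p of 0.05.

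The lists around the 10 genes gave 1 call in this test. The median log2 change of the 7 members was -1.01 under enzastaurin, against -0.01 over all genes, and 0.47 under AS-703026, against 0.04. It was 0.07 under ascorbyl-palmitate, 0.00 under AZD8055 replicates 1 to 3, -0.33 under GDC-0941 and -0.47 under KU0063794, with medians over all genes between -0.02 and 0.04. Of the brown fat list 6 genes were tested, of the white 6, of the beige 3 and of any fat cell 17, and none passed 0.05 under any compound. Of 14 lipogenic genes none passed either. Of 9 tested genes of the lipid droplet and of lipolysis 1 passed, Mgll, the monoglyceride lipase, which rose under AS-703026 by a log2 change of 0.69 ± 0.18 with an adjusted p of 0.0360. That call held in 3 of 10 fits that left out 1 library (without AS-703026 replicate 3, control 5 or control 6), with log2 changes of 0.57 to 0.80 and adjusted p of 0.0299 to 0.0933 over the 10. The adjusted p was 0.114 with the 2 groups alone and 0.580 with all 30 libraries, but 0.0122 with DESeq2, 0.0327 with RLE scaling, 0.00934 with no filter and 0.0386 with the replicate block. Over all genes 2.77% passed under this compound, so 1 of 9 is no result about the list. Of 7 tested kidney markers 2 passed there, Aqp2, the water channel of the collecting duct, with a log2 change of 2.69 ± 0.45 (adjusted p = 0.00340), and Slc12a3, the sodium chloride carrier of the distal tubule, with -1.05 ± 0.28 (adjusted p = 0.0440). The part of these in the Mgll level was not tested.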

How the data were processed

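CEL-seq reads of 30 kidney and 12 liver libraries had been turned by the authors into raw counts per Ensembl gene, 1 deposited table for the series. According to the submitters' processing notes, STAR 2.5.2b, featureCounts 1.5, Trimmomatic 0.32, bcl2fastq 1.8.4 and mm10 were used. How strand and molecular identifiers were handled is not given in the sources used here. Symbols and coordinates came from GENCODE M21, which matched 42548 of 43629 genes. Of the table's columns 0 were left without a sample.

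The members, the gene lists and the tests were chosen with earlier results of these data known. TMM scaling and filterByExpr were applied to the counts. The tests used edgeR 4.0.16 (R 4.3.3) on 29 kidney libraries without AZD8055 replicate 4, with 1 coefficient per group, a common biological coefficient of variation of 0.255 and Benjamini-Hochberg adjustment at 0.05. Standard errors came from the fitted model and its moderated dispersion. Levels are TMM-normalised CPM over the 30 kidney libraries and raw-total CPM in liver. Intervals of ratios of counts are exact at 95%, and those of shares are Wilson intervals. Named were the members, genes of the lists, the 12 genes with the largest ratio in AZD8055 replicate 4 at 50 CPM or more, and the 8 most like the members over the other 29 libraries; those of the lists given with values were picked after their values were seen. A gene that this rule names is not reported here.

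The design text calls the libraries biological replicates, so each counted as a sample. The lowest chi-square per gene between kidney libraries of a group was 3.67 (controls 1 and 4). That value cannot show that libraries came from separate mice, because any noise beyond counting error raises it. In simulated counts, 48% of 2-fold changes and 83% of 4-fold changes were called for ascorbyl-palmitate (11666 genes, 4.41% of calls false), and 52% and 80% for AZD8055 (11688 genes, 5.19% false). Alternatives were DESeq2 1.42.0, RLE scaling, no filter, all 30 libraries, the 2 groups alone, a replicate block and leaving out each library.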

Additional observations from a re-analysis of the deposited data

Results flagged for a closer look

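Of 100 pairs of a gene and a group of 4 or 6 libraries, 30 had a library far from the others by Dixon's criterion. Pairs with very few counts were passed over, so fewer than 100 were examined. For normally distributed values, chance alone flags about 1 in 20 of those examined. The values used were CPM without logs, some on few counts, and the rate for such values was not checked. The share flagged among the pairs examined was not counted. The genes are not independent, and 10 of the 30 are the library that chose them. That library, AZD8055 kidney replicate 4, stood apart for Ucp1 (4140 CPM), Cidea (1375), Adipoq (2843), Fabp4 (17334), Cfd (7144), Car3 (24127), Plin1 (274), Retn (406), Lep (36.5) and Adrb3 (432 CPM).

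Ascorbyl-palmitate kidney replicate 1 stood apart within its group for 6 genes, Ucp1 (28.1 CPM), Cidea (9.21), Adipoq (13.8), Fabp4 (257), Cfd (48.6) and Retn (4.61 CPM). Enzastaurin liver replicate 2 did so for Adipoq (45.6 CPM), Fabp4 (130 CPM), Cfd (262), Plin1 (5.73) and Retn (21.8 CPM), and GDC-0941 liver replicate 4 for Adipoq (2.19 CPM, 6 counts) and Cfd (4.75 CPM, 13 counts).

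The remaining cases were single genes, or a pair, in a library. KU0063794 kidney replicate 1 had Cidea at 5.66 CPM on 5 counts and Adrb3 at 4.53 CPM on 4 counts. GDC-0941 kidney replicate 3 had Adrb3 at 3.19 CPM on 5 counts, and AS-703026 kidney replicate 2 had Retn at 6.59 CPM on 6 counts. AS-703026 kidney replicate 1 had Cfd at 96.7 CPM, enzastaurin kidney replicate 1 had Car3 at 390 CPM, and control kidney replicate 1 had Car3 at 130 CPM.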

How the results depend on the processing

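The number of genes called over the whole table moved with the setting, and the cause was not tested. With the 2 groups alone 98 genes were called for AS-703026, 2 for AZD8055 replicates 1 to 3, 0 for ascorbyl-palmitate, 1 for GDC-0941 and 0 for KU0063794. DESeq2 called 212 for AZD8055, 301 for ascorbyl-palmitate, 52 for enzastaurin, 387 for GDC-0941 and 93 for KU0063794. It left 5219, 4273, 1430, 6878 and 3088 genes without an adjusted p, in the same order, and 7 for AS-703026. No filter gave 765 for AS-703026, 196 for AZD8055, 415 for ascorbyl-palmitate, 303 for enzastaurin, 300 for GDC-0941 and 222 for KU0063794. All 30 libraries gave 108 for AS-703026, 640 for AZD8055 and 16 for GDC-0941. The replicate block gave 47 for AS-703026, 29 for ascorbyl-palmitate, 2 for enzastaurin, 22 for GDC-0941 and 15 for KU0063794. Libraries of the same number did not deviate together as a whole. The median correlation was -0.03 over 78 pairs (-0.54 to 0.51), and 7 of 29 libraries were closest to their own number. Over 280 pairs of other numbers the correlations ran from -0.59 to 0.53. No pairing by number was seen in these values, and one shared by only part of the libraries was not tested.

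Leaving out 1 library gave 18 to 522 calls for AS-703026 (18 without its replicate 4, 522 without control 2), 1 to 199 for AZD8055 (1 without its replicate 2, 199 without control 2), 0 to 255 for ascorbyl-palmitate (255 without control 2), 0 to 75 for enzastaurin (75 without control 2), 1 to 277 for GDC-0941 (277 without control 2) and 0 to 126 for KU0063794 (126 without control 6). In none of these 29 fits did a member pass 0.05.

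Member log2 changes kept their direction in 218 of 232 comparisons with another setting and reversed in 14. In 10 of the 232 the change passed 0.05, 7 for AZD8055 with all 30 libraries, of which 4 had reversed, and 3 with no filter. With all 30 libraries, AZD8055 over control was 8.32 for Ucp1, 6.67 for Cidea, 6.89 for Adipoq, 5.89 for Fabp4, 6.34 for Cfd, 6.52 for Car3 and 7.53 for Adrb3, with the library that chose them included. Under the replicate block, Cidea was -0.11 (AS-703026) and -0.33 (ascorbyl-palmitate), Car3 -0.060 (AS-703026) and -0.13 (ascorbyl-palmitate), Fabp4 -0.081 (AZD8055), and Adrb3 -0.17 (AZD8055) and -0.30 (KU0063794). Ucp1 under KU0063794 was -0.068 with DESeq2 and -0.017 with RLE scaling, and Cfd under AZD8055 was 0.015 with no filter.

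Leaving out 1 library reversed 48 of 393 values, none of them called. The ranges were -0.46 to 1.73 for Ucp1 under ascorbyl-palmitate, -0.11 to 0.57 under GDC-0941 and -0.14 to 0.30 under KU0063794. For Cidea they were -0.10 to 0.21 under AS-703026, -0.71 to 0.40 under AZD8055 and -0.90 to 0.31 under ascorbyl-palmitate. Fabp4 ran from -0.31 to 0.18 under AZD8055 and from -0.34 to 0.074 under enzastaurin. Cfd ran from -0.77 to 0.92 under AS-703026, -0.12 to 0.14 under AZD8055 and -1.15 to 0.070 under ascorbyl-palmitate. Car3 ran from -0.34 to 0.29 under AS-703026, -0.28 to 0.23 under AZD8055, -0.29 to 0.34 under ascorbyl-palmitate and -0.063 to 1.41 under enzastaurin. Adrb3, which did not pass the filter in every such fit, ran from -0.74 to 1.12 under AZD8055 and from -1.21 to 1.07 under GDC-0941.

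The summed level of the 10 genes in AZD8055 replicate 4 was 58112 CPM by TMM, 51895 on raw totals and 56452 by RLE. Per 100 Plin1 counts that library had 1514 Ucp1 counts. Over the other 29 libraries the members other than Fabp4, Car3 and Cfd had a median of 0 to 8 counts a library, and what can be detected at such counts was not simulated.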
